A study of Homo sapiens with 9 samples.

Results

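BMP and TGF-beta pathway genes were followed in cranial neural crest cells (CNCCs) after loss of the transcription factor SOX9. The set held 43 of the 18970 genes in the count tables, listed by name as 11 ligands, 7 antagonists and latency factors, 10 receptors, 6 SMADs, 8 target genes and the corepressor SKI. The rule chooses the members by name, with no threshold on a measured value, although the list was drawn up with earlier results of these data known. It limits the description of single members to those above a minimum of T>C reads, the reads that carry the label of new RNA. Of the 43 members, 40 reached that minimum, 1 CPM (a count scaled to library size) in 3 samples, and were tested in T>C reads. In all reads 38 did so.

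CNCCs were derived from the human embryonic stem cell line H9, carrying on both SOX9 alleles a C-terminal fusion of FKBP12-F36V, mNeonGreen and V5. The degrader dTAGV-1 brings the fused protein to a ubiquitin ligase, and the labels give a relative SOX9 level of 100% at 0h and of 0% at 3h and 24h. SLAM-seq followed new RNA, in which 4-thiouridine (4sU) taken up during 2 h is alkylated and appears as T-to-C (T>C) changes when the 3′ ends of polyadenylated RNA are sequenced. The 9 samples were 3 cultures (S9CC13_R6, S9CC47_R5 and S9CC47_R6) at each of 3 times. The 0h group was the undepleted control, for which the treatment protocol names DMSO as vehicle although the concentration label of every sample reads 500 nM. The 3h and 24h groups received 500 nM dTAGV-1, with 100 uM 4sU added 1 h and 22 h after it. The names give 2 clones of the tagged line (S9CC13 and S9CC47) and 2 differentiation batches (R5 and R6), so that S9CC47_R5 was the sole R5 culture. All 3 groups grew in medium with 50 pg/ml BMP2 and 3 uM CHIR-99021, an inhibitor of the kinase GSK3, so a BMP ligand was supplied throughout. A p-value here measures the spread between these cultures of 1 parental line.

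Ligands of this family bind paired type I and type II serine/threonine kinase receptors at the cell surface. BMP receptors phosphorylate SMAD1, SMAD5 and SMAD9, TGF-beta and activin receptors phosphorylate SMAD2 and SMAD3, and both sets enter the nucleus with SMAD4. Antagonists such as noggin hold ligands away from receptors, while SMAD6, SMAD7 and BAMBI are induced by the pathway and dampen it. BMP signals help to form the neural crest and later pattern the facial skeleton, and the ID genes are among the best known transcriptional targets of BMP.

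Libraries held 16955633 to 28782678 reads, of which 3130673 to 5475800 carried a T>C conversion (15.9% to 21.3% of a library). The lowest share, 15.9%, belonged to S9CC13_R6 at 3h. All 10 cranial neural crest markers reached 1 CPM in 3 samples, and their summed total level was 3851 to 3880 CPM at 0h, 4665 to 4913 CPM at 3h and 5925 to 6304 CPM at 24h, a list that includes SOX9 and MSX1. The summed level of 6 pluripotency markers was 350 to 415 CPM at 0h and 282 to 307 CPM at 24h, with POU5F1, NANOG, SOX2 and UTF1 under the filter. The 6 neural markers summed to 56.8 to 91.6 CPM, the 6 cartilage markers to 20.9 to 40.2 CPM and the 6 Schwann cell or melanocyte markers to 2.69 to 7.26 CPM over all libraries. The part of these shifts in the results was not tested, and in these bulk samples fewer cells of a type and less RNA per cell cannot be told apart. SOX9 protein was not measured here. T>C reads of SOX9, whose RNA the degrader does not target, rose by 0.77 on the log2 scale at 3h (SE 0.08) and by 1.15 at 24h (SE 0.08, DESeq2 adjusted p = 7.28e-39).

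Newly made RNA of few members changed at 3h, and more did at 24h. Calls were made in DESeq2 where the p-value, adjusted by Benjamini-Hochberg over the 12037 protein-coding genes tested, was under 0.1. Shares of all genes are shares of such tested genes. At 3h, 2 of the 40 tested members were called lower (GDF11 and BMP7), where 0.789% of all genes were, and 1 was called higher (BMP4), where 1.01% of all genes were. At 24h, 3 members were called lower (GDF11, BMP7 and SMAD5), against 2.59% of all genes, and 8 higher (BMP4, INHBA, ID1, ID2, ID3, SMAD7, SKIL and SKI), against 2.38% of all genes. The median log2 fold change of the tested members was −0.01 at 3h and 0.32 at 24h, while that of all genes was −0.01 and 0.00. Between the 2 times, 4 members were called higher at 24h than at 3h (ID1 to ID4), against 0.54% of all genes, and none lower by DESeq2, against 0.598%. In either direction, 8 members had an unadjusted DESeq2 p under 0.05 in that comparison, against 980 of all 12037 genes, and edgeR called no member lower. With the culture as a block, 7 members were called between the times, where 530 of all 12037 genes were, against 137 in the main fit. BMP5 was higher (log2 1.08, DESeq2 adjusted p = 0.0239) and BMP7 (log2 −0.41) and GDF11 (log2 −0.53) were lower, beside the ID genes. With the block plus a surrogate variable 2 members were called (ID2 and ID3), and 60 of all genes. Without S9CC13_R6, BMP4 alone stayed called at 3h and at 24h and no member did between the times. Of the 11 members called at 24h, 6 stayed called without S9CC47_R5 and 4 without S9CC47_R6. Calls over all genes fell as well. At 24h they went from 599 of 12037 genes to 54 of 11760 without S9CC13_R6, 251 of 11741 without S9CC47_R5 and 59 of 11767 without S9CC47_R6. Between the times they went from 137 to 20 without S9CC13_R6. Both depletion times were compared with the same 0h libraries.

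**Figure D1:**
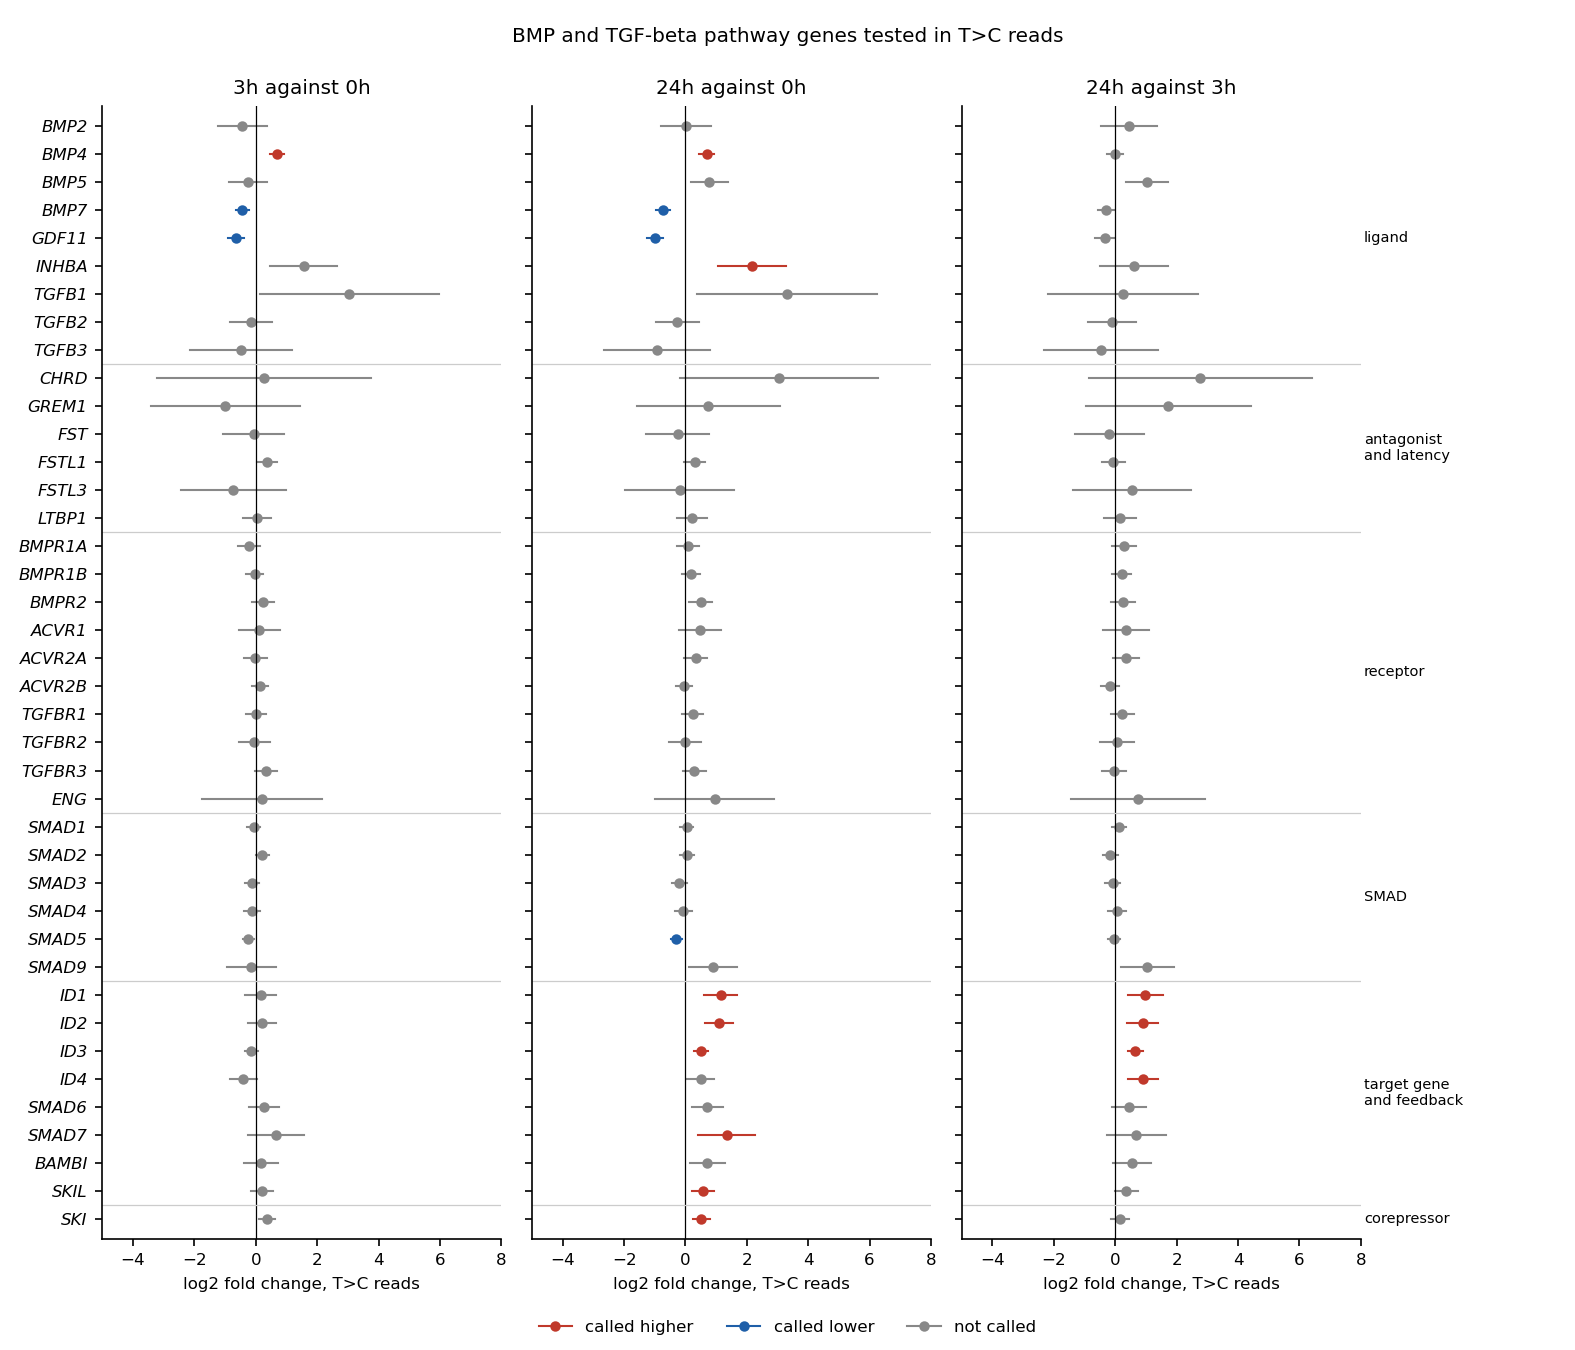
Log2 fold changes of T>C reads (horizontal axis) for the 40 tested members, grouped by role, with 95% confidence intervals as lines. Red and blue points are members called higher or lower by DESeq2 and grey points are not called. The ID genes lie to the right of 0 at 24h, while most receptors and SMADs lie near 0.

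Of the ligands, BMP4 rose and BMP7 and GDF11 fell in new RNA at both times, and INHBA rose at 24h. Values below are T>C counts divided by DESeq2 size factors, in the order S9CC13_R6, S9CC47_R5 and S9CC47_R6. Fitted log2 values and folds are adjusted for batch and a surrogate variable (explained below), so they need not match these levels in size or sign. The share of all genes whose libraries separate between 2 groups, as described below for single members, was not counted. BMP4 (chr14:53949736-53958761, hg38), a ligand of the BMP type I receptors with early roles in ectoderm and neural crest, had 826, 611 and 913 reads at 0h. It had 1651, 1446 and 1039 reads at 3h and 1228, 1193 and 940 reads at 24h. Every depleted library lay above every 0h library, at both times. The fitted rise was 1.62-fold at 3h (log2 0.70, SE 0.12, DESeq2 adjusted p = 7.41e-07) and 1.62-fold at 24h (log2 0.69, SE 0.12, DESeq2 adjusted p = 2.13e-06). The level at 24h was below that at 3h in all 3 cultures, whereas the fitted difference, adjusted for batch and for 1 surrogate variable (a term estimated from variation that the libraries share), was −0.01 (SE 0.13, DESeq2 adjusted p = 0.997). Without S9CC47_R6 the call at 24h was lost (log2 0.63, DESeq2 adjusted p = 0.522), while the call at 3h held under every alternative run.

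BMP7 (chr20:57168753-57266641), a ligand of the same receptors, had 895, 728 and 874 reads at 0h, 729, 552 and 621 at 3h, and 571, 413 and 446 at 24h. Its level fell from 0h to 3h and again to 24h in each culture, and the 24h libraries did not overlap with the 0h libraries. The fitted fall was 1.35-fold at 3h (log2 −0.44, SE 0.11, DESeq2 adjusted p = 0.00798) and 1.67-fold at 24h (log2 −0.74, SE 0.12, DESeq2 adjusted p = 4.38e-08). The call at 3h was lost without the surrogate variable (log2 −0.39, adjusted p = 0.202) and without any single culture (log2 −0.44 to −0.35), and also without the S9CC13_R6 library of 3h (adjusted p = 0.192). The call at 24h was lost without S9CC13_R6 (log2 −0.83, adjusted p = 0.109) and without S9CC47_R6 (log2 −0.68, adjusted p = 0.712).

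GDF11 (chr12:55743122-55757264), a ligand related to myostatin that acts through activin receptors, gave the largest fall among the members called in T>C reads. It had 880, 601 and 672 reads at 0h, 517, 497 and 419 at 3h, and 348, 355 and 290 at 24h. The 3 groups did not overlap. The fitted fall was 1.57-fold at 3h (log2 −0.65, SE 0.13, DESeq2 adjusted p = 1.87e-04) and 1.99-fold at 24h (log2 −0.99, SE 0.14, DESeq2 adjusted p = 4.53e-10). SARNP lies over part of GDF11 on the opposite strand and is counted as a gene of its own, and whether the counting used strand is not given in the sources used here. Without S9CC13_R6 the call was lost at 3h (log2 −0.45, adjusted p = 1.00) and at 24h (log2 −0.77, adjusted p = 0.476). Without S9CC47_R6 it was lost at 3h (log2 −0.53, adjusted p = 0.993).

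INHBA (chr7:41667168-41705834), which encodes the beta A subunit of activins, had few reads: 10.4, 2.42 and 14.5 at 0h, 11.9, 38.1 and 29.2 at 3h, and 51.2, 40.5 and 47.4 at 24h. The 24h libraries all lay above the others, whereas 3h and 0h overlapped. The rise was 4.47-fold at 24h (log2 2.16, SE 0.57, DESeq2 adjusted p = 0.00716), and it was not called at 3h (log2 1.55, SE 0.56, DESeq2 adjusted p = 0.212). With 2 to 19 T>C reads per 0h library the size of this rise is loosely set, and leaving out 1 culture gave log2 values of 4.20, 1.58 and 3.08 with no call. The 2 T>C reads of S9CC47_R5 at 0h were under 1 CPM, so INHBA met the filter of 3 samples only with depleted libraries. Its total reads at 0h were 21, 10 and 42, and only those of S9CC47_R6 reached 1 CPM. At 3h it was called by edgeR (log2 1.52, adjusted p = 0.0767) and without the S9CC13_R6 library of that time (log2 2.26, DESeq2 adjusted p = 0.0292).

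**Figure D2:**
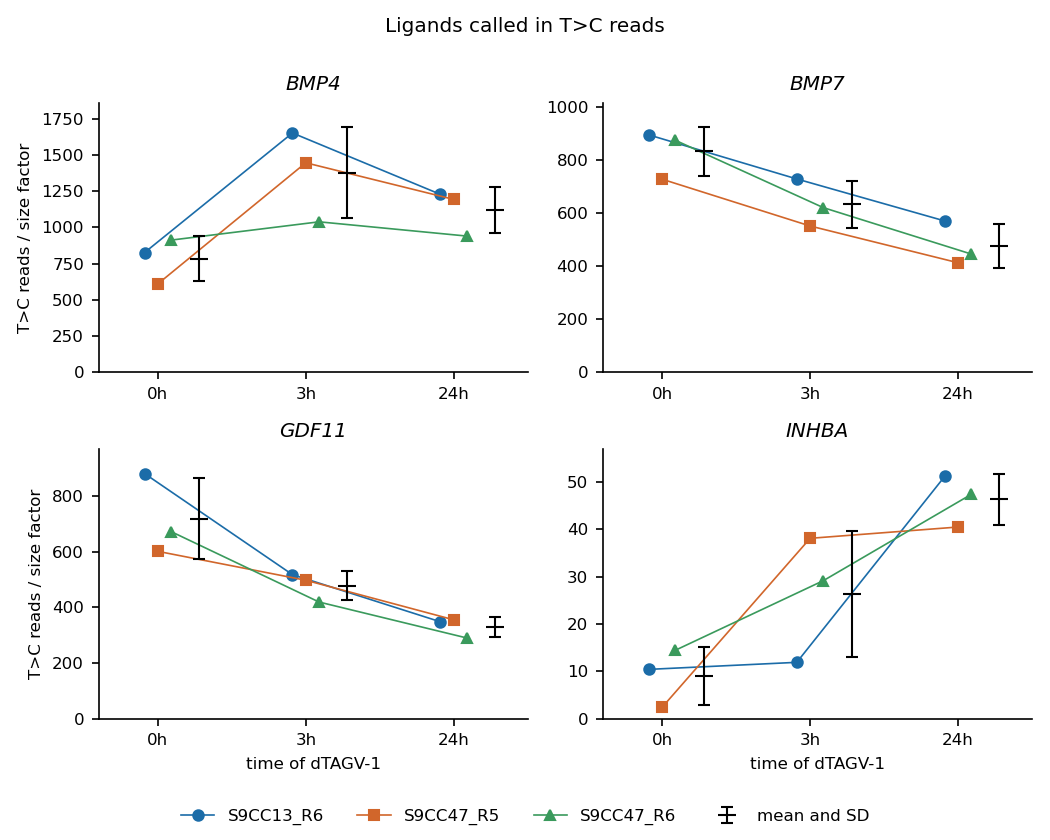
Normalized T>C reads (vertical axis, counts divided by size factors, from 0) of the 4 ligands called in new RNA at 0h, 3h and 24h of dTAGV-1. Coloured lines join the samples of a culture and black bars give the mean and SD of 3 cultures. BMP4 stands above its 0h values in each depleted library, GDF11 steps down at each time and INHBA is highest at 24h.

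The other ligands tested were not called in T>C reads. BMP5, a BMP7-related ligand, had 44.8, 42.3 and 57.1 reads at 0h and 74.0, 87.2 and 94.1 at 24h, without overlap (log2 0.78, SE 0.31, DESeq2 adjusted p = 0.181), and edgeR called it (adjusted p = 0.0761). BMP2, the ligand also present in the medium, had means of 40.0 reads at 0h and 39.8 at 24h, a log2 difference of 0.01 with a 95% confidence interval of −0.80 to 0.83. TGFB2 had means of 50.9 and 47.5 reads (−0.26, interval −0.98 to 0.45). TGFB3, which IFT43 overlaps on the opposite strand, had at most 16 T>C reads in a library. TGFB1 went from 0, 2 and 0 T>C reads in the 0h libraries to 6, 6 and 8 at 24h, so it passed the filter only through the depleted libraries and its fitted fold is not a bound. BMP6, which TXNDC5 overlaps on the opposite strand, and GDF6 stayed under the filter, with at most 9 and 5 T>C reads in a library.

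None of the 6 antagonists and latency factors tested was called in T>C reads at either time by DESeq2, and edgeR called none. An unadjusted p under 0.05 was found for 1 at 3h and 0 at 24h, against 882 and 1633 of all 12037 genes. FSTL1, a secreted follistatin-like glycoprotein, had 171, 253 and 219 reads at 0h and 276, 270 and 303 at 24h, groups that did not overlap (log2 0.31, SE 0.17, DESeq2 adjusted p = 0.451). LTBP1, which holds latent TGF-beta in the matrix, had means of 87.3 reads at 0h and 94.5 at 24h (log2 0.21, interval −0.27 to 0.69). FST, which binds activins, had a wide interval of −1.28 to 0.77, and its relative FSTL3 had 31.3, 29.0 and 32.8 reads at 0h and 37.9, 49.8 and 14.1 at 24h. CHRD and GREM1, which bind BMPs, had at most 11 T>C reads in any library. CHRD passed the filter through the depleted libraries alone, with 0, 1 and 2 T>C reads in the 0h libraries against 11, 5 and 3 at 24h. NOG was not tested, with at most 7 reads.

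None of the 10 receptors was called in T>C reads at 3h or 24h by DESeq2. They had 0 and 1 unadjusted p-values under 0.05, against 882 and 1633 of all 12037 genes. Their median log2 difference was 0.06 at 3h and 0.26 at 24h, and 8 of 10 lay above 0 at 24h, against 6041 of all 12037 genes. BMPR2, the BMP type II receptor, came nearest, with 222, 191 and 187 reads at 0h and 233, 274 and 296 at 24h. The 24h libraries all lay above those of 0h (log2 0.49, SE 0.19, DESeq2 adjusted p = 0.137), and edgeR called it (adjusted p = 0.0469). Of the BMP type I receptors, BMPR1A had a mean of 194 reads at 0h and 212 at 24h, a log2 difference of 0.07 (95% interval −0.29 to 0.44). BMPR1B had 320 and 367 (0.17, interval −0.12 to 0.46). ACVR1, a further type I receptor, ranged from 28.9 to 85.9 reads at 0h and from 63.3 to 113 at 24h (0.47, interval −0.22 to 1.16). Of the activin type II receptors, ACVR2A had means of 158 and 190 reads (0.33, interval −0.05 to 0.71) and ACVR2B of 514 and 501 (−0.04, interval −0.30 to 0.23). ORC4 overlaps ACVR2A on the opposite strand. Of the TGF-beta receptors, TGFBR1 had means of 199 and 250 reads (0.24, interval −0.10 to 0.57) and TGFBR2 of 91.5 and 104 (−0.00, interval −0.53 to 0.52). The coreceptor TGFBR3 had 170 and 233 (0.28, interval −0.10 to 0.66). ENG, a TGF-beta coreceptor best known from endothelial cells, had at most 22 T>C reads in a library.

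Among the SMADs, only SMAD5 was called in T>C reads. SMAD5 (chr5:136132845-136188747), which carries BMP signals, had 2379, 2230 and 2168 reads at 0h, 2007, 1765 and 1990 at 3h, and 2019, 1705 and 1731 at 24h. Every depleted library lay below every 0h library. The fall was 1.23-fold at 24h (log2 −0.29, SE 0.09, DESeq2 adjusted p = 0.0433) and was not called at 3h (log2 −0.25, SE 0.09, DESeq2 adjusted p = 0.229), except with size factors from total reads (log2 −0.32, adjusted p = 0.0278). Leaving out any of the 3 cultures ended the call at 24h (log2 −0.42 to −0.22), as did leaving out the S9CC13_R6 library of 3h (adjusted p = 0.247). The other SMADs were not called. SMAD1 had means of 744 reads at 0h and 754 at 24h (log2 0.05, interval −0.17 to 0.26). SMAD2 had 734 and 782 (0.05, interval −0.17 to 0.28), and SMAD4, the shared partner, 386 and 404 (−0.08, interval −0.35 to 0.20). The adjusted SMAD4 value thus had the opposite sign to the change in its means. SMAD3 had 579 and 482 (−0.20, interval −0.43 to 0.04), with every 24h library below those of 0h. SMAD9, the BMP-activated SMAD with the fewest reads, had 32.3, 42.3 and 18.3 reads at 0h and 46.5, 70.6 and 45.9 at 24h, groups that did not overlap (log2 0.91, interval 0.13 to 1.68, DESeq2 adjusted p = 0.248).

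Among the pathway's target genes, new RNA of 5 of 8 was called higher at 24h, against 2.38% of all genes, and none was called at 3h. The called genes were ID1, ID2, ID3, SMAD7 and SKIL, the other 3 (ID4, SMAD6 and BAMBI) also had fitted values above 0, and the median log2 fold change was 0.71. None was called at 3h by DESeq2 on all samples, with 0 unadjusted p-values under 0.05, against 882 of all 12037 genes. At 3h 6 of the 8 fitted values lay above 0, with a median of 0.18, against 5743 of all 12037 genes. The direct comparison of 24h with 3h called ID1, ID2, ID3 and ID4 and had a median of 0.67 over the 8 genes. Without the surrogate variable, ID1 and ID3 stayed called there and ID2 (log2 0.56, adjusted p = 0.385) and ID4 (log2 0.68, adjusted p = 0.128) did not.

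The ID proteins are helix-loop-helix factors without a DNA-binding domain that hold other such factors away from DNA. ID1 (chr20:31605283-31606515) had 349, 733 and 307 reads at 0h, 441, 650 and 391 at 3h, and 984, 1008 and 861 at 24h. All 24h libraries lay above those of the other times, and S9CC47_R5 stood 2.39-fold above the lowest culture at 0h. The rise at 24h was 2.21-fold (log2 1.14, SE 0.27, DESeq2 adjusted p = 0.00196), against a log2 difference of 0.15 at 3h (SE 0.26, DESeq2 adjusted p = 0.998). The 24h level exceeded that at 3h by 0.99 (SE 0.30, DESeq2 adjusted p = 0.0803).

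ID2 (chr2:8678845-8684461) had 677, 1024 and 500 reads at 0h, 905, 1433 and 506 at 3h, and 1436, 1668 and 902 at 24h. Its groups overlapped at both times, and S9CC47_R5 was highest at each time. Within each culture the order was 0h, then 3h, then 24h. The rise at 24h was 2.14-fold (log2 1.10, SE 0.24, DESeq2 adjusted p = 3.19e-04), and 24h exceeded 3h by 0.90 (SE 0.26, DESeq2 adjusted p = 0.0523).

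ID3 (chr1:23557926-23559501) had 1531, 2911 and 1324 reads at 0h, 898, 2224 and 1725 at 3h, and 2598, 3460 and 2926 at 24h. Reads at 3h were below 0h in S9CC13_R6 and S9CC47_R5 and above it in S9CC47_R6. Without S9CC47_R6, ID3 was called lower at 3h in T>C reads (log2 −0.55, DESeq2 adjusted p = 0.0897) and in total reads (log2 −0.63, DESeq2 adjusted p = 0.00141), against −0.15 and −0.16 with all cultures. The rise at 24h was 1.42-fold (log2 0.51, SE 0.12, DESeq2 adjusted p = 9.87e-04), and 24h exceeded 3h by 0.65 (SE 0.13, DESeq2 adjusted p = 8.99e-05). When culture replaced batch as a term and no surrogate variable was fitted, this culture block gave a rise at 24h that was larger but not called (log2 0.71, adjusted p = 0.151), as did the fit that kept batch alone (log2 0.72, adjusted p = 0.13).

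ID4 (chr6:19837370-19842197) was not called against 0h at either time. It had 126, 112 and 98.3 reads at 0h, 91.3, 108 and 71.2 at 3h, and 155, 170 and 110 at 24h. Each culture was lower at 3h than at 0h and highest at 24h, and 24h exceeded 3h by 0.90 (SE 0.25, DESeq2 adjusted p = 0.0443).

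Without S9CC13_R6, none of the 4 ID genes was called at 24h against 0h or against 3h, with log2 values against 0h of 0.60 for ID1, 0.86 for ID2 and 0.29 for ID3. Without S9CC47_R5, which leaves batch R6 alone, ID1, ID2 and ID3 stayed called in both comparisons and ID4 was not. Without S9CC47_R6, ID1, ID2 and ID3 stayed called against 0h, while ID2 (log2 0.64, adjusted p = 0.205) and ID4 (log2 0.66) lost the call against 3h. Without the S9CC13_R6 library of 3h, ID1 (adjusted p = 0.181) and ID2 (adjusted p = 0.169) lost it. Batch R5 held 1 culture and gave no value of its own.

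Among the feedback genes, SMAD7 (chr18:48919853-48950965), an inhibitory SMAD that blocks both branches, rose at 24h from a low level. It had 11.5, 16.9 and 16.8 reads at 0h, 22.5, 20.8 and 25.7 at 3h, and 30.3, 48.8 and 43.0 at 24h. The 3 groups did not overlap, and the rise at 24h was 2.53-fold (log2 1.34, SE 0.47, DESeq2 adjusted p = 0.0914). The call rested on a p close to the threshold and was lost without the CPM filter (adjusted p = 0.116), with the culture block plus a surrogate variable (adjusted p = 0.158) and without any single culture (log2 1.16 to 1.42), and also without the S9CC13_R6 library of 3h (adjusted p = 0.427).

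SKIL (chr3:170357342-170396835), a SMAD corepressor that TGF-beta induces, had 255, 219 and 184 reads at 0h, 221, 272 and 266 at 3h, and 300, 399 and 281 at 24h. The 24h libraries lay above all others (1.48-fold, log2 0.57, SE 0.18, DESeq2 adjusted p = 0.0459). The call was lost with the block plus a surrogate variable (log2 0.50, adjusted p = 0.287) and without any single culture (log2 0.36 to 0.76). SMAD6, which inhibits BMP signalling, had 55.2, 89.5 and 67.8 reads at 0h and 88.2, 177 and 89.6 at 24h (log2 0.71, SE 0.26, DESeq2 adjusted p = 0.116). BAMBI, a receptor-like protein without a kinase, had 42.7, 64.1 and 43.4 reads at 0h and 70.2, 98.7 and 102 at 24h, without overlap (log2 0.71, SE 0.29, DESeq2 adjusted p = 0.192). EdgeR called both (adjusted p = 0.0391 for SMAD6 and 0.0879 for BAMBI), and the culture block called BAMBI (adjusted p = 0.0586).

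**Figure D3:**
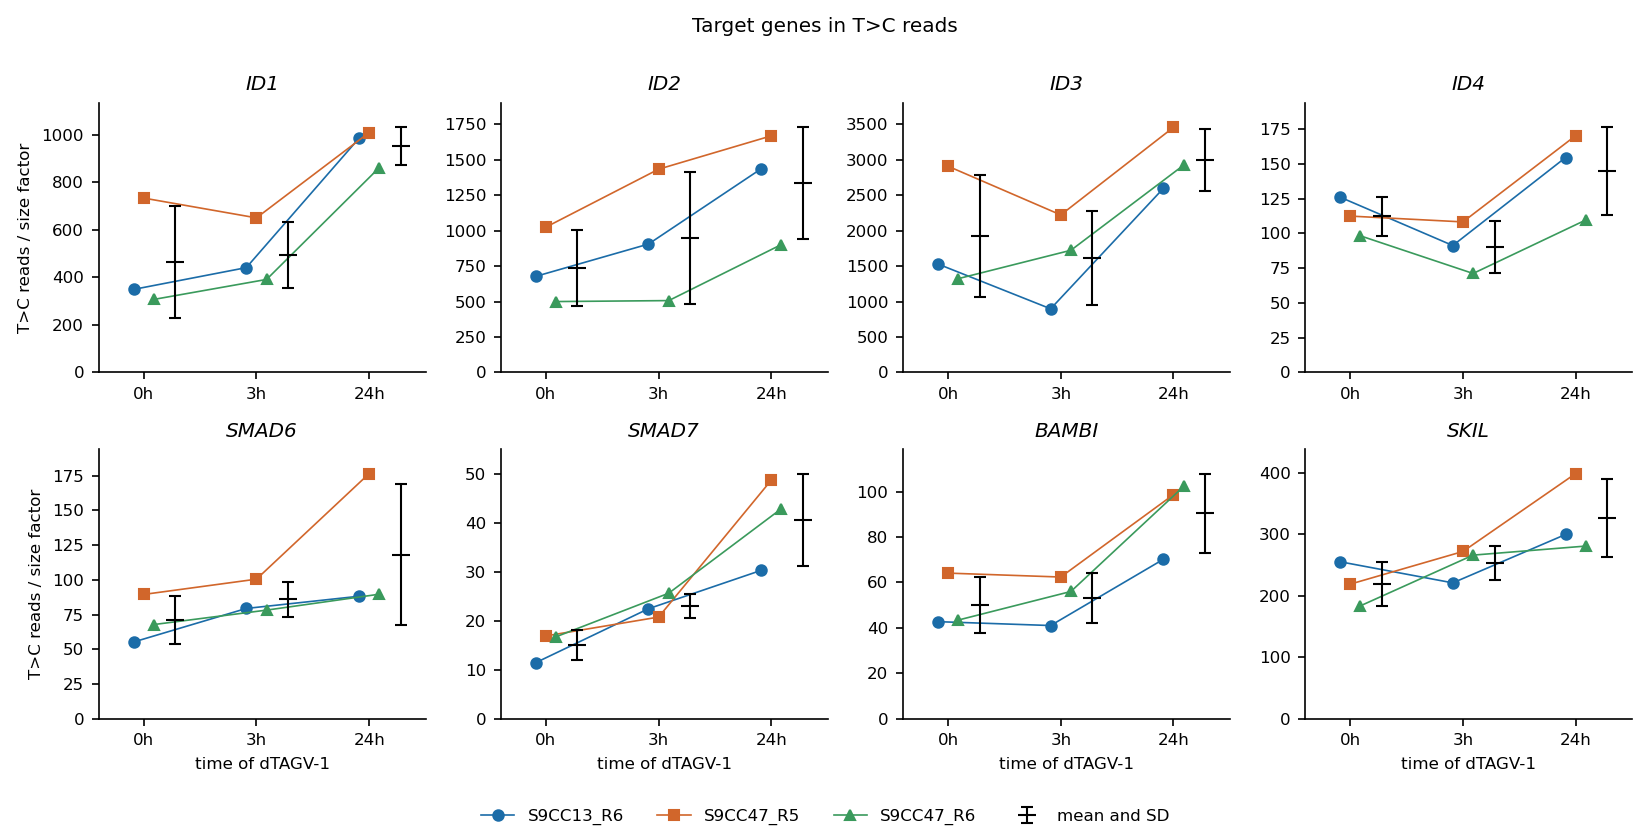
Normalized T>C reads (vertical axis, counts divided by size factors, from 0) of the 8 target and feedback genes at 0h, 3h and 24h of dTAGV-1. Coloured lines join the samples of a culture and black bars give the mean and SD of 3 cultures. Each gene is highest at 24h in every culture, and S9CC47_R5 starts highest for ID1, ID2 and ID3.

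Since all 4 ID genes were called higher at 24h than at 3h, the 250 bases upstream of the starts of ID1, ID3 and ID4 are shown. Those of SMAD6 and BAMBI were chosen after the motifs had been counted because they hold more of them than the ID windows. The windows come from RefSeq (GRCh38.p14) and run 5′ to 3′ on the gene's strand: ID1 at chr20:31605039-31605288 (plus strand), ID3 at chr1:23559502-23559751 (minus strand), ID4 at chr6:19837120-19837369, SMAD6 at chr15:66701986-66702235 and BAMBI at chr10:28677271-28677520 (all plus strand). Capitals mark matches on either strand to AACAAT, the core of the SOX motif, to GGCGCC, the GC-rich motif bound by SMAD1 and SMAD5, or to the SMAD boxes CAGAC and GTCTAGAC.
ID1: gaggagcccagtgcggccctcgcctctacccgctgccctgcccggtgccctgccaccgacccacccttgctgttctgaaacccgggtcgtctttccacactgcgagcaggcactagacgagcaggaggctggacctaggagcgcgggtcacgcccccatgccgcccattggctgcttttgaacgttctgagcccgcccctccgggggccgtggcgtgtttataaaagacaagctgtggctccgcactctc
ID3: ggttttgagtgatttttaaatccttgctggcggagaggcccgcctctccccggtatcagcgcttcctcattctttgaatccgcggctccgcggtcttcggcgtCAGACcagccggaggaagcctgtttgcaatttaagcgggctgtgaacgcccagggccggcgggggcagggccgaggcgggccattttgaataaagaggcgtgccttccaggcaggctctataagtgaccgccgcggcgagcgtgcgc
ID4: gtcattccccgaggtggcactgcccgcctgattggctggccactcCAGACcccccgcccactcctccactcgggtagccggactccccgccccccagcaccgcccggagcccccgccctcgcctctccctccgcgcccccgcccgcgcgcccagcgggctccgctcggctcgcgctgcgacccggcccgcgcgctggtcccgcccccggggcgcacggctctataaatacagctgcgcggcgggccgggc
SMAD6: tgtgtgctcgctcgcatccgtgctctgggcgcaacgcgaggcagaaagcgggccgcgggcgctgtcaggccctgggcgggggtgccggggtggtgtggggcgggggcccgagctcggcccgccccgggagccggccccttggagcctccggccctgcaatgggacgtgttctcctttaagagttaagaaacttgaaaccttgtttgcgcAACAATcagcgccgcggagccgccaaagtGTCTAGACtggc
BAMBI: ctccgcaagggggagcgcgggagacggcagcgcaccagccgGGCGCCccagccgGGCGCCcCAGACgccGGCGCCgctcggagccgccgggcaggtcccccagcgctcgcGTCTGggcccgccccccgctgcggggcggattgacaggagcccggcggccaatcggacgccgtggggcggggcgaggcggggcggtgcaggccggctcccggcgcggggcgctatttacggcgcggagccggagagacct

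The windows of ID1 and ID2 held none of the 4 motifs, and those of ID3 and ID4 held 1 CAGAC each. The ID2 window (chr2:8681806-8682055) lies inside the GENCODE span of ID2, part of it under an annotated exon, and its sequence is not shown. Windows of other members, among them BMP4, INHBA, TGFBR3 and SKIL, also lie inside the span of their gene. The member shares below thus mix sequence upstream of genes and within them. RefSeq windows were matched for 38 members, by symbol, and not for BMP2, BMP7, GDF6, NOG and SKI. SMAD6 held 1 AACAAT, the sole match to that motif among the 38, and 1 GTCTAGAC. BAMBI held 3 copies of GGCGCC and 2 of CAGAC. Of the target genes not shown, SMAD7 held 2 of CAGAC, and SKIL held 1 GGCGCC and 1 CAGAC. Over all 27305 windows of this length, AACAAT occurred in 9.19%, GGCGCC in 16.1%, CAGAC in 37.8% and GTCTAGAC in 0.176%. Among the 38 members the shares were 2.63%, 31.6%, 34.2% and 2.63%. GGCGCC holds only G and C, and GC content of the member windows ran from 35.6% (BMP5) to 81.6% (CHRD). The shares were not matched for GC content. None of the motifs contains another, and a match describes the letters only.

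SKI (chr1:2227388-2310213), a corepressor that binds SMAD complexes and the relative of SKIL, had 352, 393 and 413 reads with T>C at 0h, 594, 502 and 442 at 3h, and 500, 544 and 553 at 24h. All depleted libraries lay above all 0h libraries. The rise was 1.43-fold at 24h (log2 0.52, SE 0.14, DESeq2 adjusted p = 0.00976) and was not called at 3h (log2 0.37, SE 0.13, DESeq2 adjusted p = 0.233). Leaving out any culture ended the call at 24h (log2 0.39 to 0.57), as did leaving out the S9CC13_R6 library of 3h (adjusted p = 0.174).

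In total reads, which hold old and new RNA and include the T>C reads, more members passed the test at 24h. Of 38 tested, 2 were called lower at 3h (GDF11 and BMP7), against 0.777% of 11710 genes, and 2 higher (BMP4 and SKI), against 1.11%. At 24h, 4 were lower (GDF11, BMP7, SMAD5 and SMAD3), against 7.85% of all genes, and 18 higher, against 7.11%. The median log2 fold change of the members at 24h was 0.26, where that of all genes was 0.00. At 24h, 2 were lower than at 3h, against 2.88%, and 7 were higher, against 2.51%. With the culture block the counts were 1 at 3h (BMP4), 19 at 24h and 14 between the times, where 141, 1717 and 1546 of all 11710 genes were called. With the block and a surrogate variable the member counts were 3, 14 and 3, against 221, 831 and 248 of all genes. Without S9CC13_R6, 4 of the 22 calls at 24h held (BMP4, GDF11, INHBA and SMAD5). Without S9CC47_R5, 7 held (BMP4, BMP7, GDF11, INHBA, ID1, ID2 and ID3). Without S9CC47_R6, 6 held (BMP7, GDF11, INHBA, ID1, ID2 and ID3). Over all genes, the 1751 calls at 24h became 154 of 11544, 719 of 11552 and 327 of 11576 in these fits, in the same order.

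All 8 target genes were called higher in total reads at 24h, where 7.11% of all genes were. BAMBI had 74.7, 86.0 and 73.6 normalized total reads at 0h, 75.4, 103 and 80.1 at 3h, and 138, 170 and 162 at 24h (log2 0.96 at 24h, SE 0.23, DESeq2 adjusted p = 8.97e-04). SMAD6 had 136, 185 and 160 reads at 0h and 205, 279 and 184 at 24h, groups that overlapped by 1 library (log2 0.46, SE 0.18, DESeq2 adjusted p = 0.0838). ID4 had 213, 199 and 156 reads at 0h and 257, 260 and 187 at 24h, groups that also overlapped (log2 0.47, SE 0.18, DESeq2 adjusted p = 0.0832). The calls of SMAD6 and ID4 were lost with the culture block (adjusted p = 0.113 and 0.300). The log2 rises at 24h of ID1 (1.13), ID2 (1.07), ID3 (0.53), SMAD7 (1.19) and SKIL (0.67) in total reads differed by at most 0.15 from those in T>C reads. The call of ID3 was lost with the culture block (log2 0.75, adjusted p = 0.114).

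The ligands showed smaller changes in total than in new RNA where they fell. GDF11 had 3198, 2568 and 3247 total reads at 0h, 2750, 2353 and 2220 at 3h, and 1668, 1621 and 1484 at 24h. Its fall was 0.34 on the log2 scale at 3h in total reads against 0.65 in T>C reads, and 0.83 against 0.99 at 24h. BMP7 fell by 0.27 against 0.44 at 3h and by 0.55 against 0.74 at 24h. These differences between read types were not tested, since T>C reads are part of total reads. BMP4 rose by 0.76 at 3h (SE 0.11, DESeq2 adjusted p = 2.7e-10) and by 0.55 at 24h (SE 0.11, DESeq2 adjusted p = 2.48e-05), a call that was lost with the culture block (log2 0.38, adjusted p = 0.102). Its total reads were 2005, 1415 and 2206 at 0h, 4004, 3449 and 2660 at 3h, and 2612, 2594 and 2145 at 24h. All 3h libraries lay above all others, and 24h overlapped with 0h. The fitted difference between the times was not called (log2 −0.21, SE 0.12, DESeq2 adjusted p = 0.415) in total reads, but it was with the culture as the block (log2 −0.45, adjusted p = 0.0521) and without S9CC47_R6 (log2 −0.66, adjusted p = 0.00626). At 3h the calls of GDF11, BMP7 and SKI in total reads were lost with the culture block (adjusted p = 0.459, 0.856 and 0.353).

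Members called by DESeq2 at 24h in total but not in T>C reads included further ligands and receptors. BMP5 had 93.9, 91.2 and 102 total reads at 0h and 163, 179 and 208 at 24h (log2 0.89, SE 0.22, DESeq2 adjusted p = 0.00134). TGFB1, the founding TGF-beta ligand, had 21.2, 15.4 and 5.42 reads at 0h and 40.6, 53.7 and 31.2 at 24h (log2 1.78, SE 0.51, DESeq2 adjusted p = 0.0083). None of its 0h libraries, with 21, 12 and 7 total reads, reached 1 CPM, so TGFB1 was tested only because its depleted libraries did. BMPR2 had 495, 362 and 408 reads at 0h and 558, 617 and 592 at 24h (log2 0.54, SE 0.14, DESeq2 adjusted p = 0.00262). In these 3 genes every 24h library lay above every 0h library, and the share of all genes that do so was not counted. ENG had 33.3, 86.0 and 46.5 reads at 0h and 77.3, 173 and 55.9 at 24h, with groups that overlapped but a higher value at 24h in each culture (log2 0.98, SE 0.27, DESeq2 adjusted p = 0.00577). TGFBR1 had 845, 959 and 948 reads at 0h and 1118, 1049 and 1206 at 24h (log2 0.24, SE 0.10, DESeq2 adjusted p = 0.097). FSTL1 was the sole called antagonist or latency factor, with 1519, 1996 and 1750 reads at 0h and 2227, 2325 and 2557 at 24h (log2 0.32, SE 0.09, DESeq2 adjusted p = 0.00479). Each of these 6 calls was lost when any culture was left out.

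Reads without a conversion, total minus T>C reads, come from the same libraries but share no read with the T>C set. New RNA can also give reads without a conversion, and how much older RNA these reads hold was not measured. BMP4 rose in them by 0.82 at 3h (SE 0.11, DESeq2 adjusted p = 4.51e-10) and by 0.41 at 24h (SE 0.12, DESeq2 adjusted p = 0.0125). BMP7 and GDF11 fell at 24h, by 0.49 and 0.78 on the log2 scale, and neither was called at 3h in this set (DESeq2 adjusted p = 0.46 and 0.16). INHBA rose by 2.07 at 24h. ID1 rose by 1.08, ID2 by 1.01 and ID3 by 0.51 at 24h (DESeq2 adjusted p = 7.9e-08, 8.45e-08 and 0.0176). BAMBI, not called in T>C reads, rose by 1.34 (SE 0.37, DESeq2 adjusted p = 0.0067), while ID4 (log2 0.33) and SMAD7 (log2 0.71) were not called. BMP5 (log2 0.98), TGFB1 (1.66), BMPR2 (0.58), ENG (0.98), FSTL1 (0.35), SMAD2 (0.29) and SKIL (0.73) also rose at 24h in unconverted reads. SMAD3 fell by 0.36 and SMAD5 by 0.40. Between the times BMP4 fell in them by 0.42 (SE 0.12, DESeq2 adjusted p = 0.0288), and GDF11 (log2 −0.51), SMAD3 (−0.34) and SMAD5 (−0.29) were also called lower. BMP5, INHBA, FSTL1, ID1, ID2 and SKIL were called higher at 24h than at 3h. Unconverted reads were not fitted under the alternative runs, and the share of all genes called in them was not counted.

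The SMADs diverged in total reads at 24h. SMAD5 had 5728, 5197 and 5130 reads at 0h and 4573, 3862 and 4181 at 24h (log2 −0.35, SE 0.08, DESeq2 adjusted p = 9.28e-04). SMAD3, which carries TGF-beta and activin signals, had 1469, 1348 and 1365 reads at 0h and 1156, 1052 and 1136 at 24h (log2 −0.29, SE 0.09, DESeq2 adjusted p = 0.0287). SMAD9 went the other way, with 86.8, 119 and 78.2 reads at 0h and 131, 177 and 155 at 24h (log2 0.76, SE 0.23, DESeq2 adjusted p = 0.016). For all 3 of these SMADs the 24h and 0h libraries did not overlap, and the share of all genes that separate so was not counted. The calls of SMAD3 and SMAD9 were lost without any single culture. SMAD1, SMAD2 and SMAD4 were not called, with log2 differences of 0.04, 0.19 and 0.11.

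**Figure D4:**
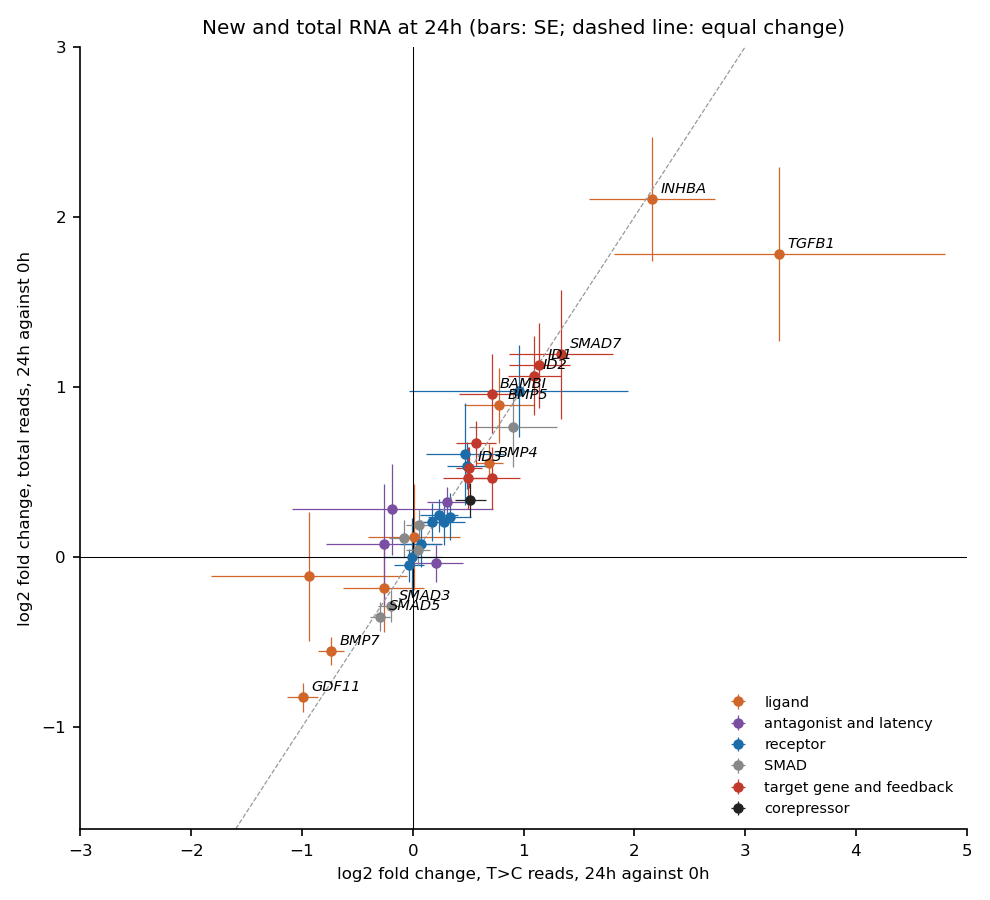
Log2 fold change at 24h against 0h in T>C reads (horizontal axis) and in total reads (vertical axis) for the 38 members tested in both, coloured by role, with SE as bars. Points near the dashed line have like values in both read types, and GDF11 and BMP7 lie at the lower left with INHBA and TGFB1 at the upper right.

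The share of a gene's reads that carried T>C conversions is set by how much of its RNA was made in the labelling window, and also by the number of T bases in the counted end. At 0h the median share over 11557 genes was 27.4%, with quartiles of 16.9% and 41.1%, and 30 of the 38 members lay above that median. ID3 had the highest share of the members, 77.5% ± 2.92 (SD, n = 3). It was followed by TGFBR2 with 74.8% ± 4.60, BMP2 with 69.1% ± 8.09 and ID1 with 65.8%. The other target genes lay at 44.5% (SMAD6) to 64.8% (BAMBI). BMP7 (25.6%) and GDF11 (24.2%) lay near the median gene. FSTL1 (12.3%), ENG (9.64%), LTBP1 (8.40%) and TGFB1 (5.56%) lay below the lower quartile. Genes with few reads, such as FST, TGFB3 and TGFB1, varied widely between cultures, and the share of TGFB1 was 15.9% at 24h.

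**Figure D5:**
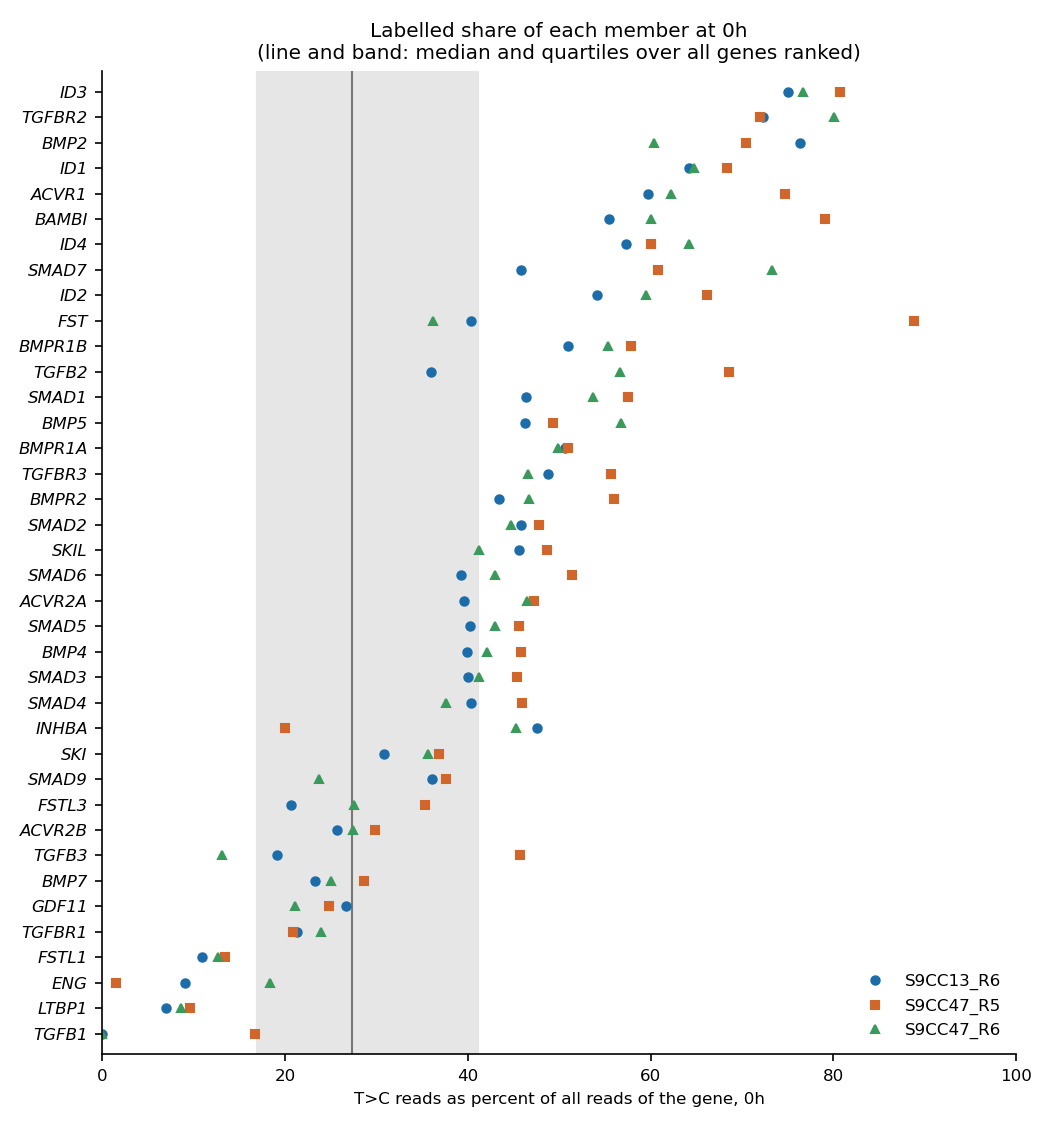
Share of each member's reads that carried a T>C conversion at 0h (horizontal axis, percent), with 1 point per culture and members ordered by their mean. The grey line and band are the median and quartiles over 11557 genes. ID3, TGFBR2 and BMP2 stand at the top and LTBP1 and TGFB1 at the bottom, where TGFB1 rests on 21, 12 and 7 total reads in the 0h libraries.

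A wider list of 86 further pathway genes was read from the same fits, of which 51 were tested in new RNA. At 3h 1 was lower and 1 higher, against 0.789% and 1.01% of all genes. At 24h 3 were lower and 6 higher, against 2.59% and 2.38% of all genes. The 9 genes called at 24h had a DESeq2 adjusted p of at most 0.0824. MSX1, a homeobox gene that BMP induces in the facial mesenchyme, rose by 0.70 on the log2 scale at 3h (SE 0.07, DESeq2 adjusted p = 1.36e-17) and by 1.20 at 24h (SE 0.08, DESeq2 adjusted p = 7.20e-50). Its relative MSX2 rose by 1.19 at 24h (SE 0.40, DESeq2 adjusted p = 0.073). HEY1, a Notch and BMP target, rose by 0.79, and DCN, a matrix proteoglycan that binds TGF-beta, by 0.85. TWSG1, an extracellular BMP modulator, rose by 0.67 and TRIM33, a ubiquitin ligase acting on SMAD4, by 0.34. TGFBI, a matrix protein induced by TGF-beta, fell by 0.67 at 3h and by 0.95 at 24h. RGMA, a BMP coreceptor, fell by 0.84 at 24h and NEDD4L, a ubiquitin ligase of activated SMAD2 and SMAD3, fell by 0.64. Of the 7 other target genes tested, 3 were higher and 1 was lower at 24h. In total reads 45 were tested, with 4 lower and 10 higher at 24h, against 7.85% and 7.11% of all genes.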

How the data were processed

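Gene counts of 3′ end RNA-seq (QuantSeq) after 4sU labelling were deposited for 9 samples, as 1 table of total reads and 1 of T>C reads. Per the study's methods, the authors trimmed read 1 and ran slamdunk (version 0.4.3) on hg38, and made no normalization of the deposited counts. T>C reads are a subset of total reads, and whether the counting used strand, and the annotation behind the counted 3′ ends, are not given in the sources used here. No molecular identifiers are stated, so intervals cover counting and replicate error without removing PCR copies. Of the 18970 gene symbols, GENCODE release 44 matched 18451 directly.

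Protein-coding genes reaching 1 CPM in 3 samples were fitted in R 4.3.3 by DESeq2 (version 1.42.0). The model held the time, the batch of differentiation and, from sva 3.50.0, 1 surrogate variable. It ran without independent filtering, and called at a Benjamini-Hochberg adjusted p under 0.1 over all genes tested. Levels are counts divided by size factors. In T>C reads the surrogate variable was −0.24, 0.17 and −0.04 at 0h, −0.71, −0.13 and 0.30 at 3h, and 0.03, 0.08 and 0.54 at 24h. Cultures are in the order S9CC13_R6, S9CC47_R5 and S9CC47_R6. Its lowest and highest values fell in the libraries with the lowest and highest T>C share. The variable was not balanced over the times, so fitted fold changes depend on it. Intervals are 95% Wald intervals. Scripts were tested on simulated data. Members, the list of other pathway genes and the marker lists were chosen with earlier results of these data known. Members with 1 CPM of T>C reads in 3 samples were described singly, those called with all values, and at most 10 other pathway genes called in T>C reads were named. Libraries held 16955633 to 28782678 total reads. Clone and batch in the sample titles pair the samples across times (mean correlation of deviations between same-culture samples 0.131 in T>C and 0.273 in total reads, 9 pairs), so the culture as a block was an alternative. The others were edgeR (version 4.0.16), TMM factors, no surrogate variable, no CPM filter, a threshold of 0.05, only the 6 samples compared, all biotypes, size factors from total reads and leaving out each culture.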

Additional observations from a re-analysis of the deposited data

Results flagged for a closer look

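The effect at 24h differed from the effect at 3h for several members by the direct comparison of the 2 times in DESeq2. In T>C reads the 24h effect was higher by 0.99 on the log2 scale for ID1, by 0.90 for ID2, by 0.65 for ID3 and by 0.90 for ID4. In total reads, which include the T>C reads, it was higher by 0.89 for ID1, 0.86 for ID2, 0.69 for ID3 and 0.83 for ID4. It was also higher in total reads by 0.97 for BMP5, by 0.80 for BAMBI and by 0.48 for SKIL. The log2 difference was −0.48 for GDF11 and −0.28 for BMP7, whose levels went further down from 3h to 24h.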

How the results depend on the processing

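None of the called results in T>C or total reads changed direction under any alternative run. With the replicate block, which pairs samples of a culture, 7 members in T>C reads and 14 in total reads were called between 24h and 3h, and 1 in total reads at 3h. Over all genes the block called 530 of 12037, 1546 of 11710 and 141 of 11710 there. With the replicate block and 1 surrogate variable, 2 and 3 members were called between the times and 14 in total reads at 24h, against 60, 248 and 831 of all genes. With only the 6 samples compared, 2 members in T>C reads were called between the times (86 of all 11759 genes) and 7 in total reads at 24h (371 of 11547). A threshold of 0.05 left 2 between the times in T>C reads (101 of 12037) and 2 in total reads at 3h (186 of 11710). In total reads at 3h, edgeR called 2, the fit without a surrogate variable 1 and that without a CPM filter 2. Over all genes these runs called 209 of 11710, 118 of 11710 and 203 of 16248. Of the other pathway genes in T>C reads, edgeR called 4 and the block 4 at 3h. Between the times edgeR called 6, the fit without a surrogate variable 5, the block 8 and the block with a surrogate variable 1. Leaving out 1 culture gave 1 to 3 members at 3h, 1 to 8 at 24h and 0 to 3 between the times in T>C reads, and 1 to 2, 4 to 8 and 0 to 8 in total reads, these ranges including the fit without the S9CC13_R6 library of 3h, which was chosen after seeing the data. For the other pathway genes the ranges in T>C reads were 1 to 3, 2 to 6 and 1 to 2. Over all genes, calls at 24h in these runs were 54 to 306 in T>C reads and 154 to 719 in total reads. With all samples they were 599 and 1751. With size factors from total reads, the median T>C change of all genes at 3h was −0.08. The cause was not tested. A group of 3 cultures and the few T>C reads of INHBA, SMAD7, TGFB1 and CHRD limit the precision.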
